A study of Mus musculus with 45 samples.

Results

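The SLC25 solute carriers of the mouse heart were followed through and after a period of raised ERBB2 in heart muscle cells. Genes were taken as members where the symbol was Slc25a followed by a number, both deposited tables listed it, and the mean normalized count reached 10 in at least 1 table. The rule took 40 of 43 such symbols among 19432 listed genes, and Slc25a18, Slc25a31 and Slc25a48 lay below the minimum. Just inside it, Slc25a43 averaged 12.4 at T1 and 3.74 over T2 and T3. Just outside it, Slc25a31 averaged 4.84 at T1 and 6.88 over T2 and T3. OE hearts carried a transgene for transient ERBB2 overexpression in cardiomyocytes, and WT hearts did not. Each genotype was taken after an injury labelled MI, which the series title calls ischemic, and after a sham operation. Hearts were taken at T1, during overexpression (labelled Dediff), at T2, 2 weeks after it (Intermediate), and at T3, 4 weeks after it (Rediff). This gave 45 libraries of polyadenylated RNA from whole hearts in 12 groups of 4, except that OE sham T3 and both MI groups of T2 had 3 libraries each. Not given in the sources used here were the promoter that drives the transgene, the strain, the age of the animals and the day of injury. Libraries carry separate numbers, but the labels do not tie them to separate animals, so p-values measure only the spread between these libraries.

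SLC25 carriers are membrane proteins, most of them in the inner mitochondrial membrane, that pass nucleotides, phosphate, carboxylates, amino acids, acylcarnitines and cofactors between the matrix and the cytosol. In heart muscle they move ADP in and ATP out, bring acylcarnitines to beta-oxidation, and carry the malate and aspartate that pass reducing power into the matrix. Each member is encoded by its own nuclear gene, and close relatives such as Slc25a4 and Slc25a5 move the same substrates but differ in the tissues that use them.

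The libraries held 14199741 to 19015856 reads. Erbb2 itself was checked first. It averaged 1697 ± 692 normalized counts in OE sham hearts and 246 ± 3.28 in WT sham hearts at T1 (SD, n = 4 each), a log2 difference of 2.67 ± 0.34 (SE, limma adjusted p = 2.01e-05). After MI it averaged 1494 ± 729 in OE and 247 ± 48.8 in WT hearts at T1. In sham hearts the log2 difference was 0.48 ± 0.090 (SE, limma adjusted p = 0.000259) at T2 and 0.22 ± 0.10 (SE, limma adjusted p = 0.141) at T3. Mitochondrially encoded transcripts took 17.8% of the counts in OE sham and 26.1% in WT sham hearts at T1. Scaling matters here: with library totals in place of the authors' scaling, the median log2 difference of all genes between OE and WT moved to 0.31 in sham and 0.28 in MI hearts at T1, and to 0.22 in sham hearts at T2. Changes below are therefore relative to the scaling of the deposited values.

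Slc25a4, the ADP/ATP carrier of heart and skeletal muscle, was the most abundant member, with 24734 normalized counts per kilobase of exon over the T1 libraries and 28178 over the T2 and T3 libraries. Slc25a3, the phosphate carrier that supplies ATP synthase, stood at 3629 and 3901, and Slc25a11, the oxoglutarate/malate carrier, at 3563 and 3928. Slc25a5, the ADP/ATP carrier of most proliferating cells, stood at 1744 and 1191 per kilobase. At the other end, Slc25a53 had 4.91 per kilobase at T1 and Slc25a43 6.99. Slc25a4 alone took 46.8% of the members' counts in OE sham and 53.6% in WT sham hearts at T1. All 40 members are protein-coding genes, and their IDs were found in the GENCODE M21 annotation of GRCm38. There, Slc25a4 lies at chr8:46206797-46211284, minus strand, Slc25a5 at chrX:36795651-36798807, plus strand, Slc25a3 at chr10:91116574-91124059, minus strand, Slc25a11 at chr11:70644196-70647479, minus strand, Slc25a20 at chr9:108662088-108684641, plus strand and Slc25a34 at chr4:141618824-141623821, minus strand. Values are sums of reads over the exons of each gene. Reads shared between Slc25a4, Slc25a5 and copies of them could be split in a way not given in the sources used here. Exons of Slc25a11 overlap Rnf167 on the opposite strand, and those of Slc25a23, Slc25a25, Slc25a26, Slc25a33 and Slc25a46 also overlap a listed gene there. Those of Slc25a10, Slc25a35 and Slc25a37 overlap unlisted genes on the opposite strand, for Slc25a35 the protein-coding Rangrf. Whether reads were counted by strand is not given, so these values are uncertain.

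The start regions of Slc25a4, Slc25a5 and Slc25a3 are shown because these carriers of ADP, ATP and phosphate lead the results below. Sequences are the RefSeq promoter windows of GRCm38.p6, 5′ to 3′ on the strand of the gene, at chr8:46211013-46211312, minus strand for Slc25a4, chrX:36795347-36795646, plus strand for Slc25a5 and chr10:91123918-91124217, minus strand for Slc25a3. Capitals mark the letters GGGCGG and, in Slc25a3, also the core of the NRF1 motif, on either strand.
Slc25a4: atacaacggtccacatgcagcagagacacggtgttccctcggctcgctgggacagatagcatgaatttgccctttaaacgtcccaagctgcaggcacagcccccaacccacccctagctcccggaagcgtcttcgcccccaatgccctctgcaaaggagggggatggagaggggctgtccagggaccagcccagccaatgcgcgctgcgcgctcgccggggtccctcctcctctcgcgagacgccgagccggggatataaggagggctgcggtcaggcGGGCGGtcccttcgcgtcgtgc
Slc25a5: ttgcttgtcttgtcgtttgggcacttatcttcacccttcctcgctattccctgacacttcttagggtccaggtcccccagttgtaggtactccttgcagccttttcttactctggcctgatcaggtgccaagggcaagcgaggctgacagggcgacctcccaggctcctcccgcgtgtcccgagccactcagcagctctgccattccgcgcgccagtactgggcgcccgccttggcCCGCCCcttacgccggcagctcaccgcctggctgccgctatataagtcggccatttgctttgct
Slc25a3: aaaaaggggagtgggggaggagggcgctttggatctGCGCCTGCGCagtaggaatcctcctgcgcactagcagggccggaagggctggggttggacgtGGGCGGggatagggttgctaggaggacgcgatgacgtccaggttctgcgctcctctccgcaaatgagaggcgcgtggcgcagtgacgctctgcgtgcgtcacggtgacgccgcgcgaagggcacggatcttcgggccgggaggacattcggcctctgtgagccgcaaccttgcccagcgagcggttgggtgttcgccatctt
Of the members, 31 were matched to a RefSeq promoter. GGGCGG, the core of the GC box, was in 28 of the 31 (90.3%), against 38.2% of the 27025 genes in the RefSeq table and 65.9% of the 11301 tested genes matched to it. The core of the NRF1 motif was in 1 of 31, that of Slc25a3, against 5.19% of all genes in the table and 10.4% of the tested ones. TNAAGGTCA, the extended site of estrogen-related receptors, was in 0 of 31, in 1.43% of all genes and in 0.973% of the tested ones. TATAAA was in 0 of 31, in 15.7% of all genes and in 9.36% of the tested ones. GGGCGG and TATAAA were added after the data were seen. Both strands were searched, none of the marked letters of one motif overlap those of another in the printed windows, and a match is a description of letters only.

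The first comparison asks how the carriers stand during overexpression, OE against WT in sham hearts at T1. Most members that changed were lower in OE: 19 of 40 were called lower and 4 higher (limma adjusted p under 0.05), with a median log2 difference of -0.33 over the members and 0.01 over all genes. Among all genes tested, 47.3% were called, 23.3% lower and 24% higher. The falls took in the carriers of ADP, ATP, phosphate, malate, aspartate, acylcarnitines and coenzyme A, while Slc25a5, Slc25a24 and Slc25a45 rose. The fourth called higher is Slc25a43, which met the minimum of 10 only through the OE libraries of T1. Its choice as a member thus rests on those high libraries, and its higher level is given as a description. The members together made up 0.543% of the counts in OE (0.515% to 0.563%) and 0.802% in WT hearts (0.763% to 0.865%). With library totals as the scaling, 12 members were called higher and 12 lower, and with TMM scaling 5 higher and 17 lower. Of all genes called, 80.1% were higher with library totals and 55.5% with TMM scaling. Median log2 differences with library totals were -0.025 over the members and 0.31 over all genes. Under library totals 16 members kept their call and its direction, and 7 did not keep it, among them Slc25a13, Slc25a35, Slc25a39, Slc25a40, Slc25a46 and Slc25a51.

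**Figure D1:**
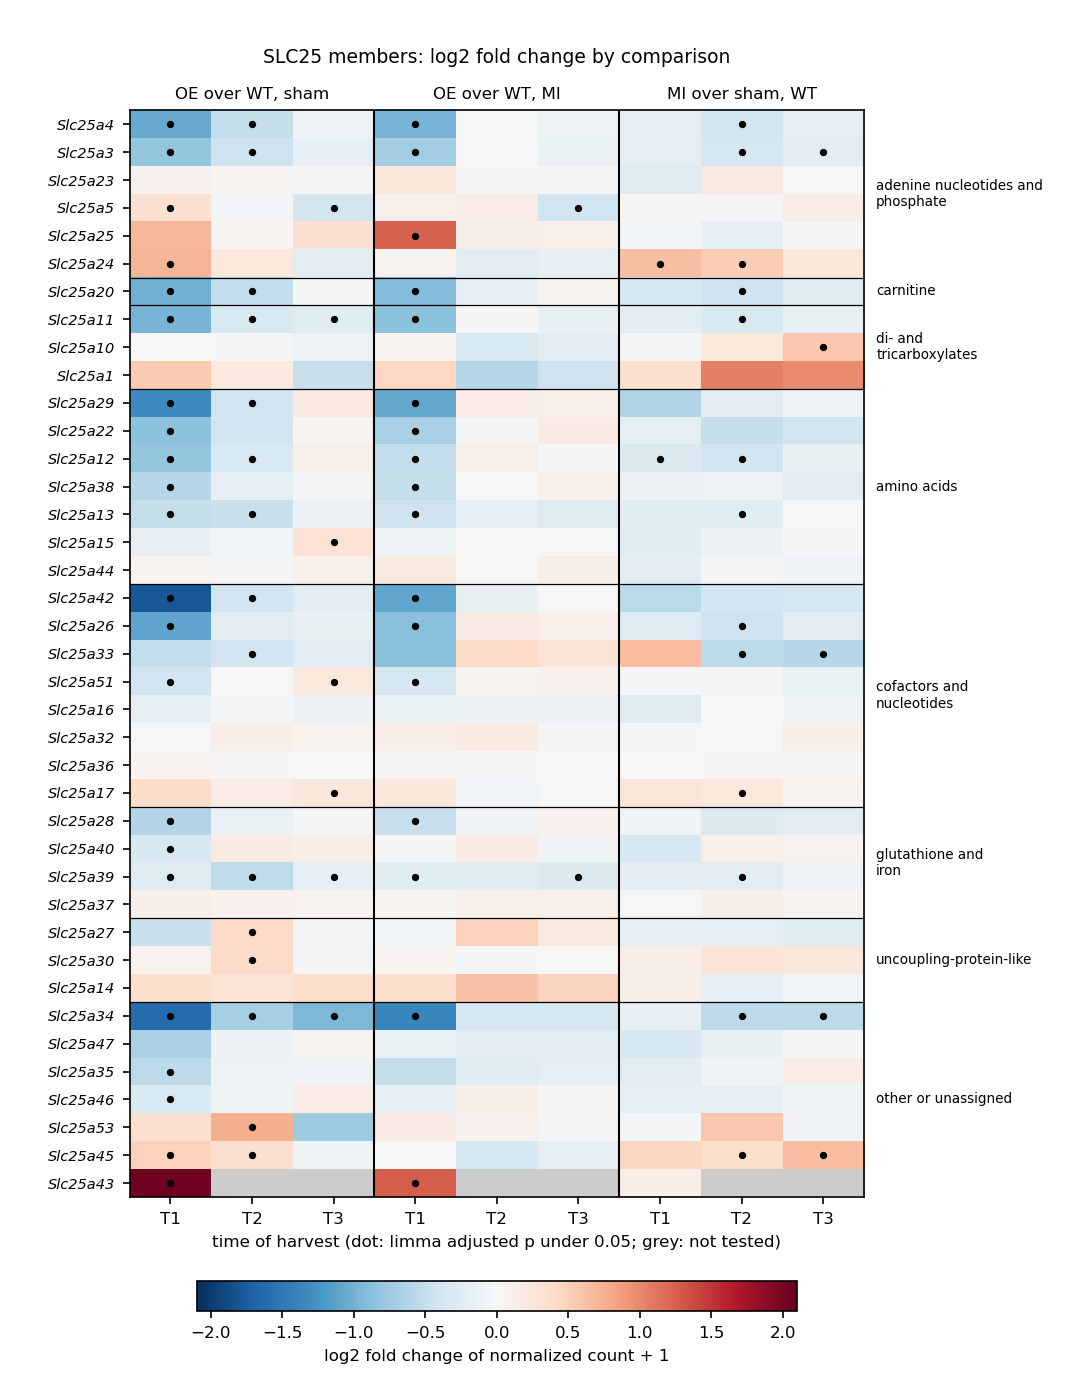
Log2 differences (colour) of 39 of the 40 members, grouped by substrate (vertical), in OE against WT sham, OE against WT MI and MI against sham of WT at T1, T2 and T3 (horizontal). Dots mark limma adjusted p under 0.05 and grey cells were not tested. In sham hearts at T1, 18 of the members drawn carry a dot in the lower and 4 in the higher direction. Among the 4 is Slc25a43, a member only through its OE libraries at T1. Library totals give 12 lower and 12 higher over all 40, where 80.1% of all genes called were higher.

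Among the 6 carriers of adenine nucleotides and phosphate, 2 fell and 2 rose. Slc25a4 had 35779, 42526, 43797 and 38020.4 normalized counts in OE sham hearts, against 73638, 83291, 83391 and 93821 in WT sham hearts. Every OE library lay below every WT library, at 47.9% of the WT mean, with a log2 difference of -1.06 ± 0.091 (SE, limma adjusted p = 3.79e-07). Slc25a3 had 14772, 16124, 16474 and 14465 normalized counts in OE sham hearts, against 25902, 28955, 26200.4 and 27862 in WT sham hearts. Here too the groups did not overlap, and the log2 difference was -0.82 ± 0.071 (SE, limma adjusted p = 4.01e-07). Slc25a5 had 3669, 3208, 3385 and 2917 normalized counts in OE sham hearts, against 2264, 2271, 2672 and 3422 in WT sham hearts. These groups overlapped. The log2 difference of Slc25a5 was 0.33 ± 0.12 (SE, limma adjusted p = 0.0392), and it passed 0.05 by little: without any one of OE sham replicates 1, 2 and 3 or WT sham replicates 1, 2 and 3 the limma adjusted p lay between 0.0609 and 0.124. Slc25a24, a calcium-regulated carrier of ATP-Mg and phosphate, had 289, 359, 233 and 242 normalized counts in OE sham and 173, 143, 198 and 164 in WT sham hearts. Its log2 difference was 0.71 ± 0.14 (SE, limma adjusted p = 0.000526), without overlap. Its relatives Slc25a23 and Slc25a25 had log2 differences of 0.085 ± 0.15 and 0.70 ± 0.34 (SE) and did not pass the test.

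Slc25a20, the carnitine/acylcarnitine carrier that brings long-chain fatty acids into the matrix, had 1211, 1303, 1696 and 1492 normalized counts in OE sham hearts, against 2648, 3656, 2563 and 2663 in WT sham hearts. All OE libraries were below all WT libraries, though 1 WT library stood well above the others. The log2 difference was -1.01 ± 0.14 (SE, limma adjusted p = 3.31e-05). Of the 4 carnitine shuttle enzymes, 3 fell: Cpt2 by 1.36, Cpt1b by 0.90 and Crat by 0.81 on the log2 scale. These acyltransferases load and unload carnitine on the sides of the membrane that Slc25a20 links.

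Of the carriers of di- and tricarboxylates, 1 of 3 fell. Slc25a11 had 5187, 5372, 5853 and 5219 normalized counts in OE sham hearts, against 10582, 11491, 10049 and 10477 in WT sham hearts. The groups did not overlap, and the log2 difference was -0.98 ± 0.086 (SE, limma adjusted p = 4.58e-07). Slc25a1, the citrate carrier, had 222 to 372 normalized counts in OE and 141 to 292 in WT hearts, and Slc25a10, the dicarboxylate carrier, 258 to 351 in OE and 276 to 305 in WT hearts. Neither passed the test.

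Among the 7 amino acid carriers 5 fell and none rose. Slc25a12 had 2678, 2761, 3206 and 3249 normalized counts in OE sham hearts, against 5356, 5266, 5084 and 5062 in WT sham hearts. This aspartate/glutamate carrier of heart, brain and muscle fell without overlap, by a log2 difference of -0.81 ± 0.079 (SE, limma adjusted p = 1.09e-06). Its close relative Slc25a13 was at -0.50 ± 0.089 (SE), the glutamate carrier Slc25a22 at -0.85 ± 0.15, Slc25a38, which brings glycine to heme synthesis, at -0.60 ± 0.12 and Slc25a29, a carrier of basic amino acids, at -1.32 ± 0.32. Those 4 passed the test. The ornithine carrier Slc25a15 at -0.17 ± 0.10 and Slc25a44, a carrier of branched-chain amino acids, at 0.054 ± 0.080 did not. All 4 malate-aspartate shuttle enzymes fell, with log2 differences of -0.91 for Got1, -0.69 for Mdh2, -0.62 for Got2 and -0.60 for Mdh1. They work in a cycle with Slc25a11 and the aspartate/glutamate carriers.

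Of 9 carriers of cofactors and nucleotides, 4 fell. Slc25a42, which exchanges coenzyme A, had 477, 516, 576 and 782 normalized counts in OE sham and 2218, 2328, 1672 and 1815 in WT sham hearts. The OE libraries held 29.3% of the WT mean, without overlap, and the log2 difference of -1.78 ± 0.18 (SE, limma adjusted p = 2.30e-06) was the lowest among the members. Slc25a26, the S-adenosylmethionine carrier, fell by 1.11 on the log2 scale and Slc25a51, the NAD+ carrier, by 0.41. Slc25a33, a pyrimidine nucleotide carrier, was at -0.52 ± 0.38 (SE, limma adjusted p = 0.271), and its relative Slc25a36 at 0.037 ± 0.072. Slc25a16, Slc25a17, a peroxisomal carrier, and Slc25a32, linked to folate and FAD, did not pass either, at -0.21, 0.38 and -0.0088.

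The glutathione carriers Slc25a39 and Slc25a40 fell by 0.27 and 0.33 on the log2 scale in the deposited scaling, and the mitoferrin Slc25a28, an iron importer, by 0.61. The other mitoferrin, Slc25a37, was at 0.13 ± 0.091 (SE) and did not pass the test. Slc25a39 had a log2 difference of 0.029 with library totals, so its direction turns with the scaling. The relatives of the uncoupling proteins, Slc25a14, Slc25a27 and Slc25a30, were at 0.38, -0.46 and 0.066 and did not pass the test.

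The 7 members without an assigned substrate, or with another role, held 3 that fell and 1 that rose, beside Slc25a43. Slc25a34 had 925, 870.5, 1144 and 1300.5 normalized counts in OE sham hearts, against 3051, 3781, 3239.5 and 2830.3 in WT sham hearts. It stood at 32.9% of the WT mean, without overlap, with a log2 difference of -1.62 ± 0.15 (SE, limma adjusted p = 6.64e-07). Slc25a35 fell by 0.55 and Slc25a46, which acts in the dynamics of the outer membrane, by 0.32. Slc25a45 had 155, 148, 159.9 and 135 normalized counts in OE sham and 103, 122, 107 and 94.3 in WT sham hearts, a log2 difference of 0.49 ± 0.13 (SE, limma adjusted p = 0.00637). Slc25a43 had 22.5, 26.8, 20.1 and 21.6 in OE sham and 7.70, 2.53, 5.68 and 4.24 in WT sham hearts. Since it is a member only through its OE libraries at T1, no test value is printed for it. Its limma calls remain in the counts and figures, where they are no support for a change of the family. Slc25a47 and Slc25a53 did not pass the test.

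**Figure D2:**
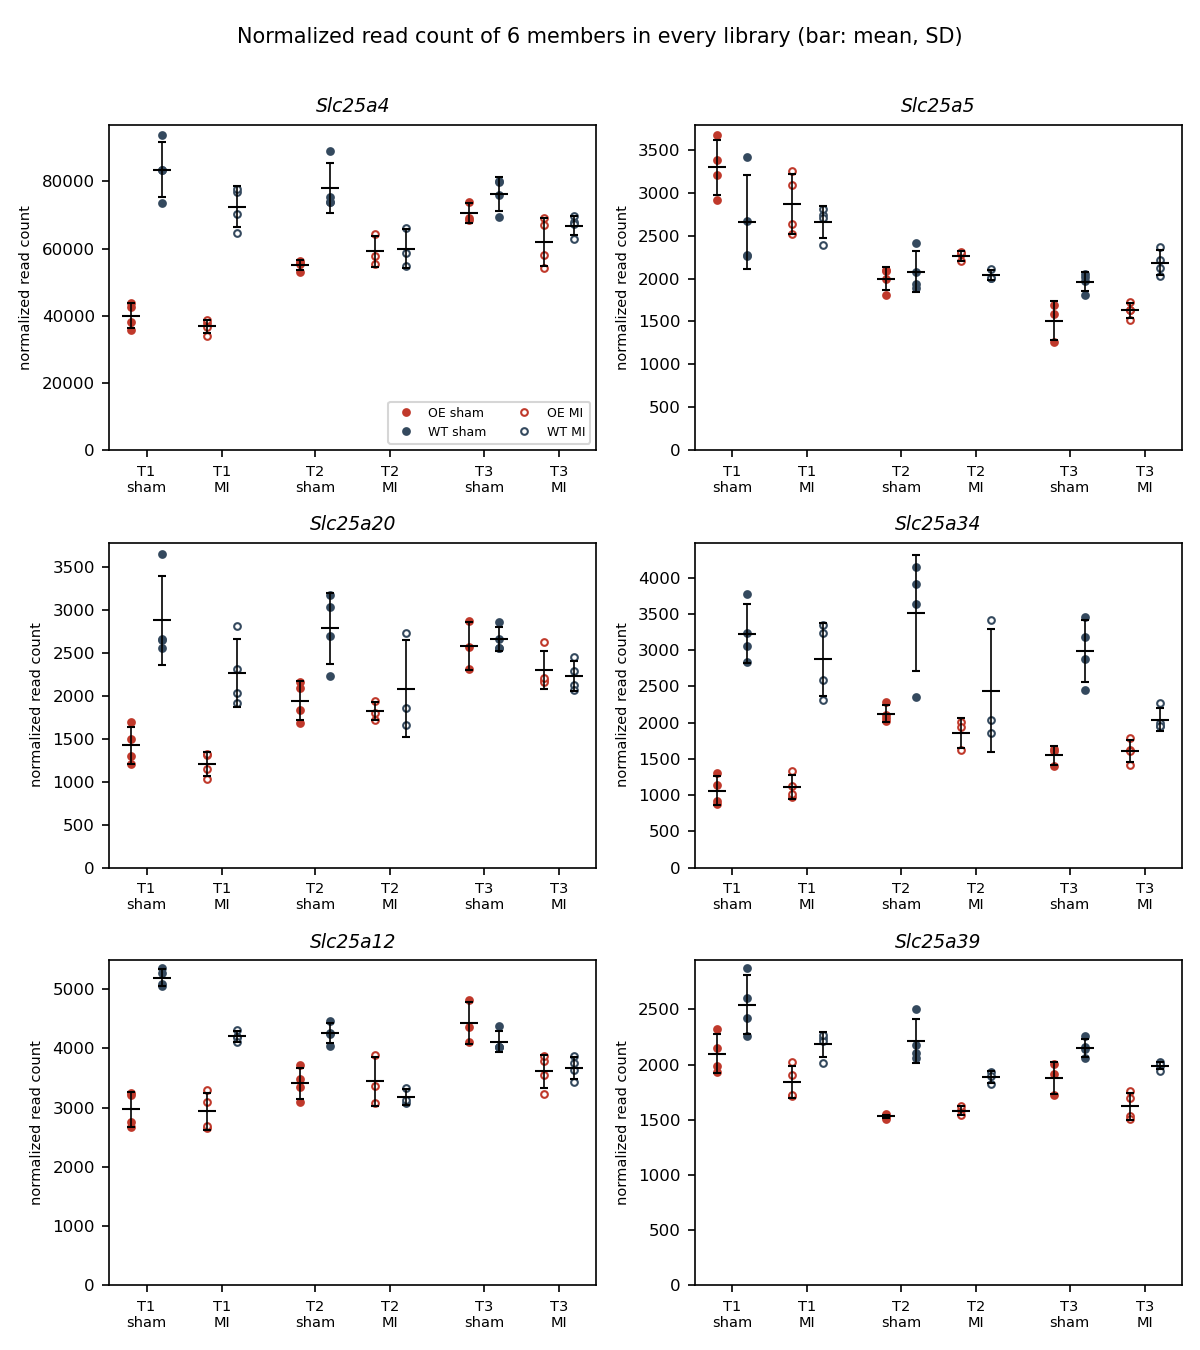
Normalized counts (vertical) of Slc25a4, Slc25a5, Slc25a20, Slc25a34, Slc25a12 and Slc25a39 in every library of the 12 groups (horizontal), with the mean and SD of each group; T1 and the later times were normalized apart. At T1 the OE sham libraries of Slc25a4 lie between 35779 and 43797 and those of WT sham between 73638 and 93821.

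Other genes of mitochondrial transport did not move as one block. Family members with another symbol split: Ucp3, an uncoupling protein of muscle, fell by 2.56 on the log2 scale and the outer membrane protein Mtch2 by 0.29, while Mtch1 rose by 0.30. Of 15 genes of other transport across the mitochondrial membranes, such as the pyruvate carrier, the VDAC pores and the calcium uniporter, 9 fell and 5 rose. Of 10 genes that import carriers into the membrane, 2 fell and 0 rose (limma). Among 5 kinases that relay ATP, Ckm fell by 1.82, Ckmt2 by 0.98 and Ak1 by 0.56, and Ckb, the creatine kinase of brain, rose by 0.45. Of 9 regulators of mitochondrial genes, 7 fell, among them Ppara (-1.41), Ppargc1a (-1.39) and Tfam (-0.58), and Myc rose (1.32).

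Markers of cell types moved with this comparison. Of 7 cardiomyocyte markers 5 fell, and their summed normalized counts were 587279 to 705504 in OE and 877757 to 1027690.0 in WT hearts. Of 7 fibroblast markers 6 rose, with sums of 105904 to 128447 in OE and 24991 to 28360.4 in WT hearts. Of 6 macrophage markers 4 rose, and 5 of 5 erythroid markers fell. No marker was at 0 in all libraries, and their part in the carriers' differences was not tested. In bulk tissue, fewer cells of a type and less RNA per cell cannot be told apart.

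After MI at T1, the same genotype comparison again showed mostly falls. Of 40 members 16 were called lower and 2 higher in OE against WT (limma), with a median of -0.14 on the log2 scale, against 0.0071 over all genes. Among all genes tested 29.9% were called, 15.2% lower and 14.7% higher. All 16 had also fallen in sham hearts. The matching overlap over all genes was not counted, so this does not set the family apart. Those called higher were Slc25a25 and Slc25a43, a member only through its OE libraries. With library totals 11 members were higher and 11 lower, and 84.7% of all genes called were higher.

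Slc25a4 had 37935, 36640.1, 34002 and 38613 normalized counts in OE MI hearts, against 70312, 76844, 77871 and 64726 in WT MI hearts. The groups did not overlap, and the log2 difference was -0.97 ± 0.091 (SE, limma adjusted p = 4.14e-06). Slc25a3, the phosphate carrier, had 14363, 14804, 13232 and 14454 in OE MI and 23606, 24372, 25202 and 21446 in WT MI hearts, a log2 difference of -0.73 ± 0.071 (SE, limma adjusted p = 4.82e-06). For Slc25a20 the counts were 1143, 1317, 1030.0 and 1322 in OE MI and 2809.8, 2037, 2318 and 1920.2 in WT MI hearts, again with all OE libraries lower, and the log2 difference was -0.91 ± 0.14 (SE, limma adjusted p = 0.000233). Slc25a5 did not pass here, at 0.11 ± 0.12 (SE, limma adjusted p = 0.568), and neither did Slc25a24, at 0.076 ± 0.14. Slc25a25, a carrier of ATP-Mg and phosphate, had 311, 169.7, 489 and 760.1 in OE MI and 137, 181, 166 and 155 in WT MI hearts. Its groups overlapped and the OE libraries were spread widely, with a log2 difference of 1.23 ± 0.34 (SE, limma adjusted p = 0.0134). Slc25a43 had 8.51, 7.79, 19.5 and 29.2 in OE MI and 3.59, 3.28, 9.76 and 6.29 in WT MI hearts, with overlap, and no test value is printed for it here either. The difference between the genotype effects in MI and in sham hearts was called by limma for 0 members at T1, with 4 at an unadjusted p under 0.05, and edgeR and DESeq2 also called 0. Among all genes 0.0911% were called, 0.013% higher and 0.078% lower. Cardiomyocyte markers summed to 536057 to 636962 in OE MI and 836826 to 897938 in WT MI hearts, with 5 of 7 lower, and fibroblast markers to 96541 to 137176 in OE MI and 49416 to 94417 in WT MI hearts, with 5 of 7 higher. Of 4 lymphocyte markers tested 2 were higher, Lck at 3.03 and Cd3e at 2.74 on the log2 scale, and the lymphocyte markers summed to 74.7 to 395 in OE MI and 27.1 to 124 in WT MI hearts. Their part was not tested.

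Slc25a5 took a larger share of the ADP/ATP carrier transcripts in OE than in WT hearts at T1, in every library of both injury states, though with 4 libraries a group the adjusted p of 0.0571 from an exact permutation test missed 0.05. In the deposited scaling the OE mean of Slc25a4 was 47.9% of WT in sham and 50.8% in MI hearts. That of Slc25a5 was 124% and 108%, with overlap, so in this scaling the larger share mostly restates the lower Slc25a4. The share of Slc25a5 in the summed counts per kilobase of Slc25a5 and Slc25a4, a measure chosen after the data were seen, does not change with the scaling of a library. It was 12.8%, 9.73%, 9.95% and 9.88% in OE sham hearts, against 4.21%, 3.75%, 4.38% and 4.96% in WT sham hearts. The OE libraries all lay above the WT libraries, with means of 10.6% ± 1.47 and 4.32% ± 0.497 (SD, n = 4 each; two-sided exact permutation p = 0.0286, the smallest that 4 against 4 allow, and 0.0571 adjusted over 6 comparisons). After MI the share was 9.04%, 8.94%, 11.5% and 10.7% in OE and 4.63%, 4.85%, 4.73% and 5.85% in WT hearts at T1, also without overlap and with the same p. At T2 it averaged 4.94% ± 0.365 in OE sham and 3.69% ± 0.544 in WT sham hearts (SD, n = 4 each), where the ranges overlapped and the exact permutation p was 0.0571. In MI hearts at T2 the means were 5.21% ± 0.483 in OE and 4.66% ± 0.449 in WT (SD, n = 3 each; exact permutation p = 0.3, smallest possible 0.1). At T3 the order was the other way round in the means: 2.97% ± 0.443 in OE sham (SD, n = 3) and 3.56% ± 0.344 in WT sham hearts (SD, n = 4; exact permutation p = 0.114, smallest possible 0.0571). After MI it was 3.87%, 3.85%, 3.56% and 3.27% in OE and 4.74%, 4.00%, 4.62% and 4.51% in WT hearts at T3. Those groups did not overlap (exact permutation p = 0.0286, and 0.0571 adjusted over the 6). None of the 6 comparisons passed 0.05 after adjustment.

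**Figure D3:**
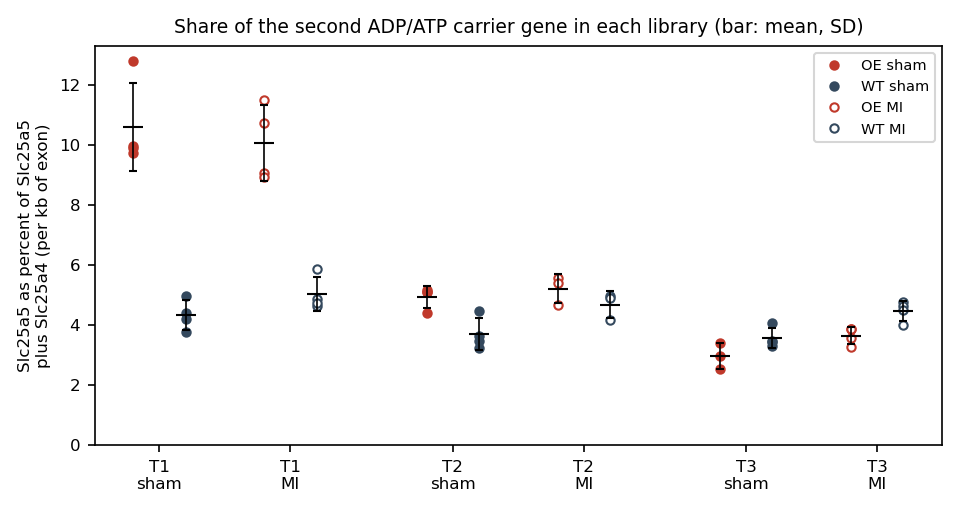
Share of Slc25a5 in the summed normalized counts per kilobase of Slc25a5 and Slc25a4, in percent (vertical), for every library of the 12 groups (horizontal), with the mean and SD. Means are 10.6% in OE sham and 4.32% in WT sham hearts at T1, and 2.97% in OE sham and 3.56% in WT sham hearts at T3.

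At T2, 2 weeks after overexpression, part of the pattern was seen in sham hearts. Of 39 members tested, 11 were lower and 4 higher in OE than in WT (limma), with a median log2 difference of -0.053, against 0.015 over all genes. Of all genes tested 25.4% were called, 13.6% lower and 11.8% higher. The lower members included the carriers of ADP/ATP, phosphate, oxoglutarate/malate, aspartate/glutamate and acylcarnitine. Scaled by library totals, 14 members were higher and 6 lower, and 87.2% of all genes called were higher. Without OE sham replicate 2 the count was 9, with 9 lower and 0 higher.

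Slc25a39, a glutathione carrier, had 1547, 1536, 1510.1 and 1526 normalized counts in OE sham hearts, against 2182, 2063, 2507 and 2106 in WT sham hearts. No OE library reached the WT libraries, and the log2 difference was -0.53 ± 0.059 (SE, limma adjusted p = 5.63e-07). Slc25a3 had 18723, 17595, 19107 and 18686 normalized counts in OE sham hearts, against 24594, 24439, 26458 and 24646 in WT sham hearts. It fell by a log2 difference of -0.43 ± 0.059 (SE, limma adjusted p = 6.66e-06). Slc25a4 had 55268, 53048, 55753 and 56208 normalized counts in OE sham hearts, against 73874, 73939, 89178 and 75347 in WT sham hearts. Its log2 difference was -0.50 ± 0.078 (SE, limma adjusted p = 3.50e-05), without overlap, and the OE libraries held 70.5% of the WT mean. Slc25a13, an aspartate/glutamate carrier, had 2092, 2062, 2458 and 2059 in OE sham and 3157, 3021, 2690.4 and 3075 in WT sham hearts, a log2 difference of -0.46 ± 0.081 (SE, limma adjusted p = 0.000129). Slc25a20 had 1833, 1682, 2089 and 2167 normalized counts in OE sham hearts, against 2235, 2699, 3178 and 3032 in WT sham hearts. The log2 difference of this carnitine carrier was -0.51 ± 0.12 (SE, limma adjusted p = 0.00225). Slc25a5 had 2102, 1998, 2092 and 1806 in OE sham and 2419, 1939, 2079 and 1886 in WT sham hearts and did not pass the test, at -0.053 ± 0.080 (SE). Slc25a34 (-0.70), Slc25a42 (-0.42), Slc25a29 (-0.42), Slc25a33 (-0.40), Slc25a12 (-0.32) and Slc25a11 (-0.32) made up the rest of the falls on the log2 scale.

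Of the 4 that rose at T2, Slc25a53 had 33.7, 59.0, 48.4 and 39.3 normalized counts in OE sham and 22.7, 37.4, 17.7 and 29.5 in WT sham hearts, a log2 difference of 0.75 ± 0.24 (SE, limma adjusted p = 0.0241). Slc25a27, a relative of the uncoupling proteins, had 143, 149.8, 121 and 139 in OE sham and 104, 83.9, 125 and 103 in WT sham hearts, a log2 difference of 0.42 ± 0.14 (SE, limma adjusted p = 0.0242). In both members the groups overlapped. The call of Slc25a53 was lost without any one of OE sham replicates 2 and 3 and WT sham replicates 1 and 3 (limma adjusted p 0.059 to 0.108), and that of Slc25a27 without any one of OE sham replicates 1 and 2 and WT sham replicate 2 (0.0583 to 0.1003). Slc25a30 and Slc25a45 were at 0.40 ± 0.15 and 0.35 ± 0.12 (SE). All 4 malate-aspartate shuttle enzymes and 3 of 4 carnitine shuttle enzymes were again lower. Cardiomyocyte markers were lower for 5 of 7, with sums of 720353 to 785473 in OE and 815206 to 968140.0 in WT hearts, and fibroblast markers higher for 6 of 7, with fibroblast sums of 37173 to 38713 in OE and 19371 to 21102 in WT hearts. Their part was not tested.

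After MI at T2 no member was called in OE against WT by limma, with 6 at an unadjusted p under 0.05, and edgeR called 0 and DESeq2 1. Among all genes tested 1.56% were called, 1.15% lower and 0.406% higher. Slc25a4 had 55438, 64405 and 57881 normalized counts in OE MI hearts, against 54937, 58634 and 66264 in WT MI hearts, and the groups overlapped. Its log2 difference was -0.016 ± 0.090 (SE). Slc25a20 had 1724, 1802 and 1935 in OE MI and 1665, 1863 and 2729 in WT MI hearts, at -0.16 ± 0.14 (SE), and Slc25a5 had 2289.9, 2202 and 2304 in OE MI and 2005, 2107 and 2006 in WT MI hearts, at 0.15 ± 0.092 (SE).

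The genotype effect differed between MI and sham hearts at T2 for 6 members, 5 with a higher and 1 with a lower effect in MI hearts (limma). Of all genes 4.94% were called, 2.39% higher and 2.54% lower. The difference of log2 differences, OE minus WT in MI hearts less that in sham hearts, was 0.43 ± 0.091 (SE, limma adjusted p = 0.0114) for Slc25a3 and 0.81 ± 0.18 (SE, limma adjusted p = 0.0126) for Slc25a33. It was 0.48 ± 0.12 for Slc25a4, 0.43 ± 0.11 for Slc25a12, 0.34 ± 0.10 for Slc25a11 and -0.72 ± 0.19 for Slc25a45 (SE). The values of Slc25a33 were 273, 351 and 347 normalized counts in OE MI and 249, 233 and 243 in WT MI hearts, and 263, 309.6, 254 and 268 in OE sham and 333, 394, 375 and 338 in WT sham hearts. In sham hearts the OE libraries were lower, while in MI hearts the OE mean was above the WT mean. Slc25a45 had 96.8, 98.3 and 114 in OE MI and 136, 134 and 129 in WT MI hearts, and 137, 153, 115 and 123 in OE sham and 80.4, 112, 115 and 107 in WT sham hearts. The MI groups hold 3 libraries each. Without OE MI replicate 3 the limma adjusted p was above 0.05 for Slc25a3 and for Slc25a33 (0.056). The call of Slc25a4 was lost without any one of OE MI replicate 3 and WT MI replicates 2 and 3 (0.0607 to 0.0864), and that of Slc25a45 without any one of these or OE sham replicate 2 (0.0535 to 0.0826). Without OE MI replicate 3 no member was called, and with WT MI replicate 2 or 3 left out 2 were. Without OE sham replicate 2 there were 3. With library totals 1 was higher and 1 lower, and 10.2% of all genes called were higher.

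At T3, 4 weeks after overexpression, few members differed in sham hearts: 4 fell and 3 rose in OE (limma), with a median log2 difference of -0.046. Among all genes 13.1% were called, 6.57% lower and 6.54% higher. Slc25a34, Slc25a5, Slc25a11 and Slc25a39 fell, and Slc25a15, Slc25a17 and Slc25a51 rose. The count depended on single libraries. It was 4 without WT sham replicate 3 or 4, 3 without OE sham replicate 1 and 1 without OE sham replicate 3. With library totals 4 were higher and 2 lower, and 78.7% of all genes called were higher.

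Slc25a34 had 1398, 1608 and 1634 normalized counts in OE sham hearts, against 2871, 3185, 2451 and 3455 in WT sham hearts. It stood at 51.7% of the WT mean, with a log2 difference of -0.94 ± 0.17 (SE, limma adjusted p = 0.000937). Slc25a5 had 1581, 1693 and 1254 normalized counts in OE sham hearts, against 2057, 1811, 1973 and 2018 in WT sham hearts. All OE libraries were lower, with a log2 difference of -0.39 ± 0.086 (SE, limma adjusted p = 0.00345), and without OE sham replicate 3 the adjusted p was 0.0687. Slc25a11 at -0.25 ± 0.071 and Slc25a39 at -0.20 ± 0.064 (SE) were the other lower members. Slc25a51, the NAD+ carrier, had 1332, 1199.7 and 1308 normalized counts in OE sham and 1144, 971, 1176 and 1098 in WT sham hearts, a log2 difference of 0.22 ± 0.062 (SE, limma adjusted p = 0.0162). Slc25a17, the peroxisomal carrier, had 299.9, 285 and 306 in OE sham and 236, 251, 264 and 257 in WT sham hearts, a log2 difference of 0.24 ± 0.073 (SE, limma adjusted p = 0.0322). The call of Slc25a51 was lost without any one of OE sham replicates 1 and 3 and WT sham replicate 2 (limma adjusted p 0.0719 to 0.0899), and that of Slc25a17 without any one of OE sham replicates 1 and 3 and WT sham replicates 1 and 2 (0.0596 to 0.144). The ornithine carrier Slc25a15 was at 0.30 ± 0.10 (SE).

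Slc25a4, the most abundant carrier, and Slc25a20 did not pass the test at T3. Slc25a4 had 73976, 68546 and 69239 normalized counts in OE sham hearts, against 69338, 75848, 79738 and 80279.8 in WT sham hearts. Its groups overlapped, and the log2 difference was -0.11 ± 0.085 (SE, limma adjusted p = 0.425). Slc25a20 had 2311, 2568 and 2870.0 in OE sham and 2562, 2858, 2561 and 2659.5 in WT sham hearts, at -0.046 ± 0.13 (SE, limma adjusted p = 0.857). Among the malate-aspartate shuttle enzymes Got1 was lower, and no carnitine shuttle enzyme passed the test. Of 7 cardiomyocyte markers 2 were lower, with sums of 787884 to 880790.0 in OE sham and 838504 to 923870.0 in WT sham hearts, and no fibroblast marker passed. Their part was not tested. After MI at T3 only Slc25a5 and Slc25a39 were called, both lower (limma), where 3.28% of all genes were called, 2.09% lower and 1.2% higher. Slc25a5 had 1521, 1629, 1726 and 1633 normalized counts in OE MI hearts, against 2365, 2028, 2219 and 2127 in WT MI hearts. The log2 difference was -0.42 ± 0.080 (SE, limma adjusted p = 0.00231). Slc25a39 had 1529.5, 1507, 1695 and 1759 normalized counts in OE MI hearts, against 1984, 1946, 2025 and 2007 in WT MI hearts. Its log2 difference was -0.30 ± 0.059 (SE, limma adjusted p = 0.00404). Both were also lower in sham hearts at T3, an overlap that was not counted over all genes. Slc25a4 had 54069.5, 58141, 66903 and 69161 in OE MI and 67880.4, 69613, 67183 and 62718 in WT MI hearts, at -0.11 ± 0.078 (SE), and Slc25a20 had 2191, 2159, 2209 and 2630.2 in OE MI and 2126, 2289, 2071 and 2455 in WT MI hearts, at 0.038 ± 0.12 (SE). Neither passed the test. With library totals 0 were higher and 1 lower, and 73.5% of all genes called were higher. The genotype effect did not differ between MI and sham for any member by limma at T3, with 4 at an unadjusted p under 0.05 and 0 by edgeR and DESeq2, and 0.00644% of all genes were called, 0.00644% higher.

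Between T1 and T3 the genotype effect in sham hearts moved for 23 of the 40 members: it was higher at T3 for 18 and lower for 5 (limma on reads of both tables scaled together). Among all genes 36.8% were called, 18% higher and 18.8% lower. Of the 19 members that were lower in OE at T1, the difference was called for 17, 10 were again lower at T2 and 3 again lower at T3, namely Slc25a34, Slc25a11 and Slc25a39. The T1 libraries that chose these members, and those higher at T1, also enter the difference, which favours a change back. The same counts were not made over all genes. Slc25a51, lower at T1, was higher at T3, a call lost without any one of 3 libraries (limma adjusted p 0.0719 to 0.0899). The T1 calls of Slc25a51 and Slc25a39 were not kept with library totals. Of the members higher at T1, Slc25a5, Slc25a24 and Slc25a45 had a called difference, Slc25a45 was again higher at T2, none was again higher at T3, and Slc25a5 was lower at T3. Slc25a12 had the change of 0.90 ± 0.11 (SE, limma adjusted p = 4.62e-08), Slc25a4 of 0.94 ± 0.12 (SE, limma adjusted p = 1.59e-07), Slc25a5 of -0.73 ± 0.15 (SE, limma adjusted p = 0.000167) and Slc25a24 of -0.96 ± 0.20 (SE, limma adjusted p = 0.000153) on the log2 scale. Slc25a42 at 1.55 and Slc25a29 at 1.51 had the highest changes. Slc25a43 is among those lower here and in MI hearts, where its membership rests on the high OE libraries of T1. With library totals 11 were higher and 5 lower, and 27.6% of all genes called were higher. Cell type markers moved in the same contrast: 4 of 7 cardiomyocyte markers had a higher effect at T3, all 7 fibroblast markers a lower one, from -3.06 for Col1a1 to -0.83 for Pdgfra, and 5 of 6 macrophage markers a lower one. In MI hearts the same held for 4 of 7 cardiomyocyte and 4 of 7 fibroblast markers. Between T2 and T3 in sham hearts 2 of 7 cardiomyocyte markers had a higher and 4 of 7 fibroblast markers a lower effect. Their part was not tested.

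**Figure D4:**
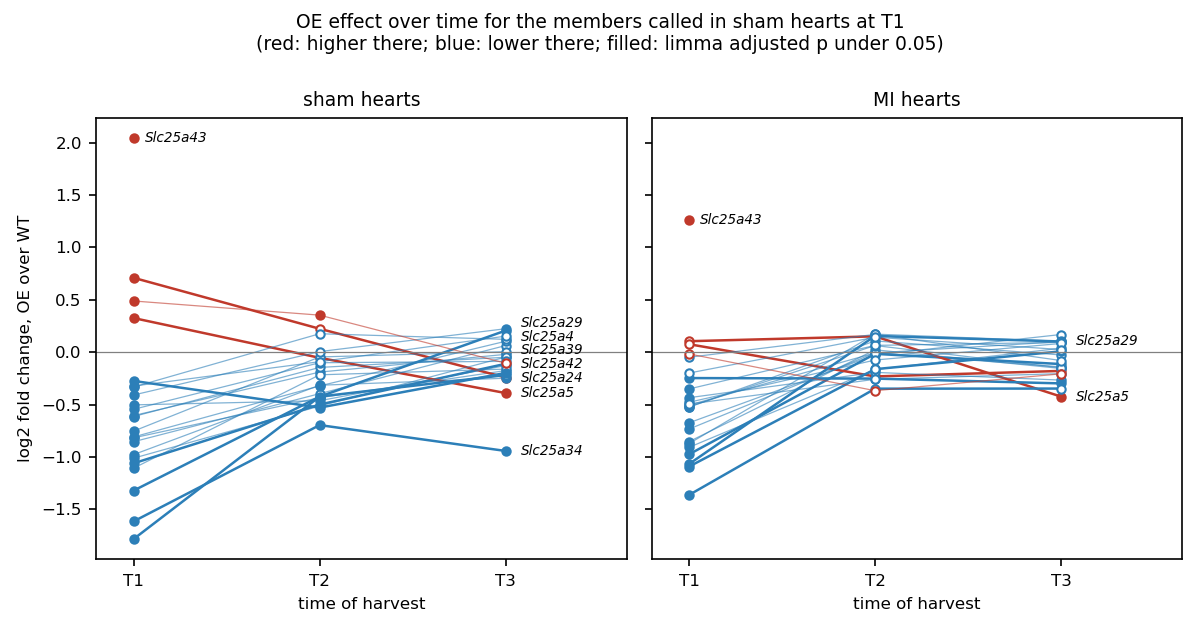
Log2 difference of OE against WT (vertical) at T1, T2 and T3 (horizontal) for the 23 members called in sham hearts at T1, in sham and in MI hearts, with filled points where limma adjusted p was under 0.05. Of the 19 drawn as lower at T1 in sham hearts, 10 are lower again at T2 and 3 at T3 in the deposited scaling. With library totals the members called at T1 are 12 higher and 12 lower, where 80.1% of all genes called were higher.

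In MI hearts the genotype effect was higher at T3 than at T1 for 14 members and lower for 3 (limma), with 20.5% of all genes called, 11.2% higher and 9.28% lower. Slc25a4 changed by 0.86 ± 0.12 (SE, limma adjusted p = 1.71e-06) and Slc25a3 by 0.60 ± 0.087 (SE, limma adjusted p = 5.18e-06), and Slc25a5 by -0.53 ± 0.14 (SE, limma adjusted p = 0.00685). The change of Slc25a25, -1.12 ± 0.37 (SE, limma adjusted p = 0.0255), lost its call without any one of OE MI replicates 3 and 4 at T1 and WT MI replicate 1 at T1 or T3 (0.055 to 0.0881). Between T2 and T3 in sham hearts the effect was higher at T3 for Slc25a12, by 0.43 ± 0.10 (SE, limma adjusted p = 0.00997), and for Slc25a39, by 0.33 ± 0.088 (SE, limma adjusted p = 0.0152). It was lower for Slc25a53, by -1.52 ± 0.36 (SE, limma adjusted p = 0.00799). The change of Slc25a4, 0.39 ± 0.12 (SE, limma adjusted p = 0.0275), lost its call without any one of OE sham replicate 2 and WT sham replicate 3 at T2 and replicate 1 of OE sham or WT sham at T3 (0.0539 to 0.0805). There 12.3% of all genes were called, 6.19% higher and 6.11% lower. With library totals 1 member was higher and 2 lower, and 20.5% of all genes called were higher. In MI hearts limma called 0 members between T2 and T3, with 1 at an unadjusted p under 0.05, 0 by edgeR and 1 by DESeq2, and 0% of all genes were called. T1 and T3 were normalized in separate tables, so their difference compares effects measured within each table. Since time goes with the table here, a change with time and a difference between the sets of libraries cannot be told apart.

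Injury itself was read in WT hearts, MI against sham. At T1, 1 member rose and 1 fell (limma), against 5.8% of all genes called, 4.31% higher and 1.49% lower. Slc25a24 had 225, 294, 281 and 257 normalized counts in MI and 173, 143, 198 and 164 in sham hearts, a log2 difference of 0.64 ± 0.14 (SE, limma adjusted p = 0.0161). Slc25a12 had 4198, 4195, 4314 and 4101 in MI and 5356, 5266, 5084 and 5062 in sham hearts, a log2 difference of -0.30 ± 0.079 (SE, limma adjusted p = 0.0367). The call of Slc25a24 was lost without WT MI replicate 3 or WT sham replicate 2 (limma adjusted p 0.057 to 0.0612), and that of Slc25a12 without any one of WT MI replicates 2, 3 and 4 and the 4 WT sham libraries (0.0596 to 0.0935). The count was 0 without WT sham replicate 2 or WT MI replicate 3. It was 1 without WT sham replicate 1 or 4 or WT MI replicate 2, and 4 without WT MI replicate 1. With library totals or TMM scaling 2 were higher and 0 lower. Of all genes called, 97.6% were higher with library totals and 86.8% with TMM scaling. In OE hearts limma called 0 members at T1, with 3 at an unadjusted p under 0.05, and edgeR and DESeq2 called 0, where 0.0065% of all genes were called, 0.0065% lower. Of the cell type markers, 6 of 7 fibroblast and 4 of 6 macrophage markers were higher after MI in WT hearts at T1, with fibroblast sums of 49416 to 94417 in MI and 24991 to 28360.4 in sham hearts, and their part was not tested.

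At T2, 10 members fell and 3 rose after MI in WT hearts (limma), with a median log2 difference of -0.16, where 21.8% of all genes were called, 10.4% lower and 11.4% higher. Slc25a3 had 18406, 19116 and 20993 normalized counts in MI and 24594, 24439, 26458 and 24646 in sham hearts, a log2 difference of -0.36 ± 0.064 (SE, limma adjusted p = 0.000266). Slc25a12 had 3079.6, 3133 and 3326 in MI and 4464, 4048, 4266 and 4236 in sham hearts, at -0.42 ± 0.077 (SE, limma adjusted p = 0.000359). Slc25a4, Slc25a11, Slc25a13, Slc25a20, Slc25a26, Slc25a33, Slc25a34 and Slc25a39 were also lower, from -0.57 for Slc25a33 to -0.23 for Slc25a39. These groups did not overlap for Slc25a3 or Slc25a12. Slc25a24 had 256, 212 and 236 in MI and 185, 186, 126 and 160.2 in sham hearts, at 0.52 ± 0.14 (SE, limma adjusted p = 0.00666). Slc25a17 had 296, 272 and 267 in MI and 244, 228, 244 and 242 in sham hearts, at 0.22 ± 0.073 (SE, limma adjusted p = 0.0346), a call lost without any one of WT MI replicates 2 and 3 and WT sham replicates 2 and 4 (limma adjusted p 0.0507 to 0.174). Slc25a45 also rose, by 0.37 on the log2 scale. The call of Slc25a20, -0.44 ± 0.13 (SE, limma adjusted p = 0.0161), was lost without any one of WT MI replicates 2 and 3 and WT sham replicate 3 (0.0582 to 0.152). With library totals 5 were higher and 6 lower, and 82.9% of all genes called were higher. Without WT MI replicate 2 the count was 6, and without WT MI replicate 3 it was 8. In OE hearts limma called 0 members at T2, with 2 at an unadjusted p under 0.05, and edgeR and DESeq2 called 0, where 0.0258% of all genes were called, 0.0258% lower. In WT hearts 6 of 7 cardiomyocyte markers were lower after MI, with sums of 586037 to 708879 in MI and 815206 to 968140.0 in sham hearts. All 7 fibroblast markers were higher, with sums of 41326 to 58679 in MI and 19371 to 21102 in sham hearts, and their part was not tested.

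At T3 after MI, 3 members fell and 2 rose in WT hearts (limma), where 14.9% of all genes were called, 6.67% lower and 8.25% higher. Slc25a33 had 203, 349, 259 and 246 normalized counts in MI and 365, 367, 417 and 435 in sham hearts, a log2 difference of -0.60 ± 0.12 (SE, limma adjusted p = 0.00124). Slc25a3 had 20671, 23209, 21444 and 22055 in MI and 24978, 25356, 25340.4 and 26512 in sham hearts, at -0.23 ± 0.059 (SE, limma adjusted p = 0.0113). Neither group pair overlapped, and Slc25a34 was lower too, at -0.54 ± 0.16 (SE). Slc25a45 had 154, 109, 126 and 121 normalized counts in MI and 81.2, 88.0, 75.4 and 75.6 in sham hearts, a log2 difference of 0.66 ± 0.12 (SE, limma adjusted p = 0.000938). Slc25a10, the dicarboxylate carrier, had 263, 489, 317 and 379 in MI and 208, 258, 251 and 233 in sham hearts, at 0.57 ± 0.15 (SE, limma adjusted p = 0.0114). In OE hearts 6 fell and 2 rose at T3, with 19.1% of all genes called, 7.99% lower and 11.1% higher. Slc25a3, Slc25a12, Slc25a15, Slc25a39, Slc25a46 and Slc25a51 fell by 0.19 to 0.32 on the log2 scale, and Slc25a10 and Slc25a45 rose, at 0.46 and 0.55. With library totals the counts were 8 higher and 1 lower in WT, and 6 higher and 0 lower in OE hearts. Of all genes called there, 94.9% were higher in WT and 94.8% in OE hearts. The count in OE hearts was 3 without any one of OE sham replicates 1 and 2 and OE MI replicates 1 and 2, and 5 without OE sham replicate 3. In WT hearts at T3, 5 of 7 cardiomyocyte markers were lower after MI, with sums of 659520.0 to 789279 in MI and 838504 to 923870.0 in sham hearts. Macrophage markers were higher for 6 of 6, with sums of 7422 to 11019 in MI and 4106 to 5970.5 in sham hearts, and their part was not tested.

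**Figure D5:**
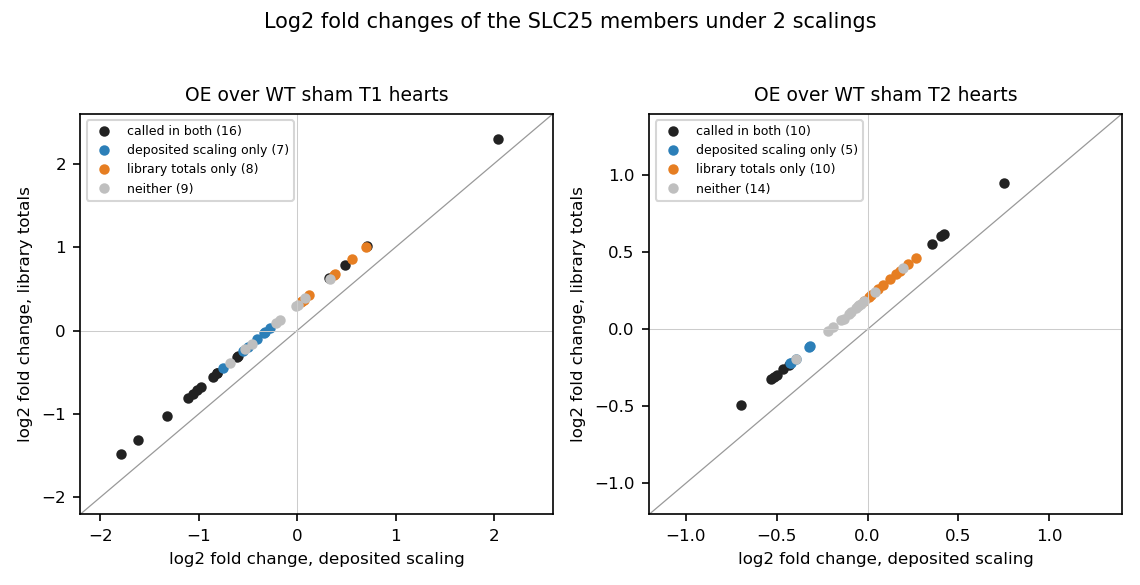
Log2 difference of OE against WT in sham hearts under library totals (vertical) against the deposited scaling (horizontal) for the members at T1 and T2, coloured by where limma adjusted p was under 0.05. At T1 16 members are called in both scalings, 7 only in the deposited one, 8 only with library totals and 9 in neither; at T2 the counts are 10, 5, 10 and 14.

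Some carriers passed no test. In the 6 comparisons of OE with WT, 30 of the 40 members were called at least once (limma) and 10 never. The matching counts over all genes were not made, for these 6 or for all 19 comparisons. The counts here therefore do not set the family apart from other genes. Over all 19 comparisons, Slc25a1, Slc25a14, Slc25a16, Slc25a23, Slc25a32, Slc25a36, Slc25a37, Slc25a44 and Slc25a47 were never called. Among them are the citrate carrier, a mitoferrin and a carrier of ATP-Mg and phosphate. That is not evidence that they stayed level: Slc25a1 averaged 298 normalized counts in MI and 139 in sham hearts of WT at T2, without overlap and with a log2 difference of 1.05 ± 0.41 (SE, limma adjusted p = 0.0695), and in OE hearts at T3 329 in MI and 130.3 in sham hearts, again without overlap and at 1.06 ± 0.41 (SE, limma adjusted p = 0.0718). Slc25a14 was at 0.61 ± 0.18 (SE, limma adjusted p = 0.0795) in OE against WT MI hearts at T2 and 0.46 ± 0.15 (SE, limma adjusted p = 0.102) at T3, both without overlap. Slc25a36, a pyrimidine nucleotide carrier, had log2 differences of 0.037 ± 0.072 and -0.0091 ± 0.073 (SE) in sham hearts at T1 and T3, in the deposited scaling. With library totals Slc25a36, Slc25a44, Slc25a37, Slc25a17, Slc25a1, Slc25a25, Slc25a30 and Slc25a14 were called higher in OE sham hearts at T1. In that scaling 80.1% of all genes called there were higher. Slc25a43 was too low to be tested at T2 and T3.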

How the data were processed

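Per the labels' protocols, whole-heart RNA was extracted with an miRNeasy kit and sequenced after poly-A selection. Build GRCm38 and the tools cutadapt, STAR, HTSeq and DESeq2 come from the submitters' processing notes. Not given in the sources used here: versions, settings, strandedness. The values came in 2 tables, 16 libraries in one and 29 in the other, normalized separately. The signal in them is a normalized count per the file headers, that is, reads over a scaling factor of each library. The deposited score is the largest read count of a comparison, and it was used only to check the reads recovered here. All 45 columns were matched to samples by name. Multiplying by the factor gave whole reads for 100% of values within 0.1 reads.

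Since the values are not raw counts, limma 3.58.1 (R 4.3.3; trend and robust options) was run on log2(normalized count + 1) with all groups of a table, for genes reaching 10 in at least 4 libraries (T1) or 3 (T2 and T3), and p-values were adjusted by Benjamini-Hochberg over all genes tested. A log2 difference on this scale understates the change of low genes. The T1 and T3 difference used reads of both tables scaled together by the median-of-ratios method. Alternatives were edgeR 4.0.16 and DESeq2 1.42.0 on recovered reads, TMM scaling and library totals, a pseudocount of 4, no filter, only the groups compared, a replicate block, and leaving out each library. The model was tested on simulated data with equal numbers of rises and falls and the same spread setting for all genes. Such data do not test the choice of scaling. Tables and figures were made in Python 3.11.15 with pandas 2.3.3, numpy 2.4.6 and matplotlib 3.10.9.

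Members and gene lists were chosen with earlier results of these data known. Named genes were Slc25a4, Slc25a5, Slc25a20, the 5 highest per kilobase, and the called members with the smallest p (up to 6 each way in sham hearts at T1, up to 2 each way elsewhere, up to 4 called again later); other members are named as part of their role group. The values of 1 member are counted but not reported here. Whole-tissue RNA gives relative levels. No sex, strain or age was used.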

Additional observations from a re-analysis of the deposited data

Results flagged for a closer look

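In groups of 4 libraries, 1 library stood apart from the other 3 for 11 of the 180 member and group pairs of the 20 named members (6.11%), and chance alone would mark about 1 in 20 such groups. Slc25a20 had 3656 normalized counts in WT sham replicate 2 at T1, where the next library had 2663, and 2630.2 in OE MI replicate 4 at T3, next 2209. WT sham replicate 3 at T2 was high for Slc25a4 (89178, next 75347) and for Slc25a3 (26458, next 24646). Slc25a34 was high in WT MI replicate 1 at T3 (2277), Slc25a12 in WT sham replicate 4 at T3 (4382), and Slc25a10 in WT MI replicate 4 at T1 (411). Slc25a13 was high in OE sham replicate 3 at T2 (2458) and in WT MI replicate 2 at T3 (3567). Slc25a53 was low in OE MI replicate 4 at T1 (30.9, next 41.0) and Slc25a17 in WT sham replicate 2 at T2 (228, next 242).

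The genotype effect differed between injury states or between times for 14 named pairs of member and comparison, by limma's test of the difference itself. At T2 the effect of OE in MI less that in sham hearts was -0.72 for Slc25a45, 0.43 for Slc25a3 and 0.81 for Slc25a33 on the log2 scale. From T2 to T3 in sham hearts the effect changed by -1.52 for Slc25a53, 0.43 for Slc25a12 and 0.33 for Slc25a39. From T1 to T3 in sham hearts it changed by -0.96 for Slc25a24, -0.73 for Slc25a5, 0.90 for Slc25a12 and 0.94 for Slc25a4. In MI hearts the change from T1 to T3 was -0.53 for Slc25a5, -1.12 for Slc25a25, 0.86 for Slc25a4 and 0.60 for Slc25a3.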

How the results depend on the processing

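Among 59 calls of members named by the rule, direction held wherever an alternative gave a value. The T1 sham call of Slc25a39 is not among these, and its log2 difference turned to 0.029 with library totals. All 59 held with edgeR, a pseudocount of 4 and no filter, 58 with TMM scaling, 57 with DESeq2, 51 with library totals and 49 of the 58 that could be tested with only the groups compared. Shares of all genes called were counted only for the deposited scaling, library totals and TMM scaling. For every other setting, here and above, a moved count does not tell the family apart from all genes. The edgeR count test on the recovered reads called 21 members in OE against WT sham at T1, 13 at T2 and 6 at T3. After MI it called 18, 0 and 2. With only the groups compared, counts of members called were 6 for MI against sham in WT at T2, 3 for OE against WT sham at T3, 1 for OE against WT MI at T3, 8 and 4 for MI against sham at T3 in WT and in OE, and 8 for T3 against T2 in sham hearts. Library totals gave 2 for the interaction at T2, 1 for OE against WT MI at T3 and 9 for MI against sham in WT at T3. DESeq2 gave 5 for MI against sham in WT at T1, 1 for OE against WT MI at T2 and 1 for T3 against T2 in MI hearts. The cause was not tested. Leaving out 1 library gave 0 to 4 calls for MI against sham in WT at T1, 6 to 15 at T2 and 4 to 7 at T3, 3 to 10 in OE at T3, 0 to 8 for the interaction at T2, 9 to 13 for OE against WT sham at T2 and 1 to 7 at T3, 2 to 3 after MI at T3, 3 to 6 for T3 against T2 in sham hearts, 20 to 24 for OE against WT sham at T1 and 13 to 19 after MI at T1.

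The main fit did not treat equal replicate numbers as pairs. Correlations of deviations of equally numbered libraries ran from -0.352 to 0.248, and in no comparison was every pair over 0.1. With 3 or 4 libraries a group, this check cannot exclude pairing. With the replicate block, 24 members were called in OE against WT sham at T1, 18 after MI, 13 in sham hearts at T2, 5 at T3, 4 in the interaction at T2 and 1 for MI against sham in WT at T1. Other counts of members called stayed within 1.5 times, taken without regard to direction. With library totals, OE against WT sham at T1 went from 4 higher and 19 lower to 12 higher and 12 lower. There 80.1% of all genes called were higher, against 50.8% in the deposited scaling. Members with few reads, such as Slc25a43 and Slc25a53, are the least precise at this depth, and whole-heart RNA does not tell cell types apart.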
